A study of Mus musculus with 6 samples.

Results

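The complement system was followed through 9 genes in C3H10T1/2 cells: C3, C4b, Cfb, C1ra, C1s1, Serping1, C2, Cd55 and Masp1. They were taken by gene symbol, with earlier results of these data known, and all 9 were found among the 55401 genes of the count table. Complement is a cascade of plasma proteins that marks cells and particles for removal. The classical pathway starts when the protease C1r activates C1s, both bound to C1q, and C1s cleaves C4 and C2. The lectin pathway starts through proteases of the MASP family. Both pathways form a convertase that cleaves C3, the protein at which the pathways meet, while factor B builds the convertase of the alternative pathway. Inhibitors keep the cascade in check in plasma and on the cell's own membrane. The liver makes most of the plasma proteins, and fibroblasts and other mesenchymal cells are a known local source of several of them.

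C3H10T1/2 is a mesenchymal cell line from mouse embryo that can form bone or fat cells in culture. It carried a retroviral control hairpin RNA (shControl), a hairpin against Nfib, a transcription factor gene (shNFIB), or one against Kmt2a, the gene of the histone methyltransferase MLL1 (shMLL1). RNA of each line was sequenced at day 0, without treatment, and at day 7 of osteogenic medium (0.1 µM dexamethasone, 100 µg/ml ascorbic acid 2-phosphate, and β-glycerophosphate at 20 mM). Each of the 6 conditions had 1 library, so no difference between a pair of conditions has a replicate check, and the medium cannot be told apart from the 7 days that passed. All groups shared the cell line and a hairpin, the controls included, and each target was lowered by 1 hairpin line as labelled, which limits the knockdown lines as models. In a bulk sample, a gene's level in fewer cells and less of its RNA per cell cannot be told apart.

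The promoter sequences of 3 genes are shown for 3 patterns of the data: C3 is the most abundant of the 9, C1s1 was also higher at day 7, and Cd55 was lower. C4b, with the largest change between days, has no window here. Each is the RefSeq window on GRCm38.p6 from 250 bases before to 50 bases after an annotated start, read 5′ to 3′ on the gene's strand, with motif matches in capitals.
C3, chr17:57228087-57228386, minus strand: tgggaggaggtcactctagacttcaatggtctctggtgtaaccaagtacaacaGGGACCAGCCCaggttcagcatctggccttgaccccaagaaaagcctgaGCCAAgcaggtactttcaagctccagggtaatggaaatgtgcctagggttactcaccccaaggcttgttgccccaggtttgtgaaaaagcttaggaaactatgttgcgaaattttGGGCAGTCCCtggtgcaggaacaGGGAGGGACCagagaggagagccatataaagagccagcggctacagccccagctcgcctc
C1s1, chr6:124542310-124542609, minus strand: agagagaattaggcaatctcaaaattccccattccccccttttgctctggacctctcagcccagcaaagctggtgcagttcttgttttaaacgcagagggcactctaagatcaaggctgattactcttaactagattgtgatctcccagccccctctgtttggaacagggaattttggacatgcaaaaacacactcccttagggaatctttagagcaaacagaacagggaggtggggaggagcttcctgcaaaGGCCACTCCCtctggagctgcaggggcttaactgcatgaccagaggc
Cd55, chr1:130462695-130462994, minus strand: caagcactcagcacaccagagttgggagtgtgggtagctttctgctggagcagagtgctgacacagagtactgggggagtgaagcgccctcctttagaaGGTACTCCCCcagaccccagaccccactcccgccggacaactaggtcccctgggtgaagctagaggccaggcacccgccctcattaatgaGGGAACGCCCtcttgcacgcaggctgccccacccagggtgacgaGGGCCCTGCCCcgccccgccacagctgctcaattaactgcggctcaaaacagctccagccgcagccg
The C3 window held 1 half-site of the NFI family (GCCAA on the strand shown, TTGGC on the other) at positions -148 to -144 from the start, and its other capitals are kB-like matches (GGG, 5 bases of any kind, CC, on either strand, some overlapping). The C1s1 window, 1 of 2 overlapping ones for this gene, and the Cd55 window held only kB-like matches. Of 32851 RefSeq windows of this length, 46.7% held the half-site and 50.8% a kB-like match, so both are common letters. A window was also found for C1ra, which held 1 GAS motif (TTCNNNGAA) at positions 33 to 41, present in 8.30% of windows. An ISRE-like motif (GAAA, 2 bases, GAAA), found in 3.44% of windows, and the C/EBP-like motifs TTGCNCAA (2.94%) and TTGCGCAA (0.183%) had no match in the windows of C3, C1s1, Cd55 and C1ra. A match describes the letters only and says nothing of binding. No window was used for C4b, Cfb, Serping1, C2 and Masp1.

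In the GENCODE M21 annotation of GRCm38, 3 of the 9 genes lie close together on chromosome 17, all on the minus strand: C4b (34728380 to 34743882), Cfb (34856374 to 34862518) and C2 (34862604 to 34898265). C3 lies apart from them on the same chromosome (57203970 to 57228136, minus strand). C1ra (124512405 to 124523443, plus strand) and C1s1 (124530345 to 124542359, minus strand) are neighbours on chromosome 6. Masp1 (23449417 to 23520815) is on chromosome 16, Serping1 (84765387 to 84775444) on chromosome 2 and Cd55 (130439027 to 130462744) on chromosome 1, all on the minus strand. Exons of the readthrough model Gm20547 cover 79.5% of the exon bases of Cfb and 42.8% of those of C2 on the same strand, and Gm20547 had 0 counts in all 6 libraries, so the counts and per-length levels of Cfb and C2 are uncertain. C4b, C1ra and C1s1 have near-identical copies (C4a, C1rb, C1s2), between which reads could be split or lost.

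The libraries held 21608680 to 34774066 counted reads. Values below are CPM, read counts of a gene scaled to a common library size with TMM factors, and 3 counts, taken as the floor, correspond to 0.0939 to 0.123 CPM. Nfib had 116 CPM in shControl and 35.3 in shNFIB at day 0, and 83.5 against 8.15 at day 7. Kmt2a had 74.7 CPM in shControl and 30.9 in shMLL1 at day 0, and 66.3 against 34.8 at day 7. Nfib also stood at 65.5 CPM at day 0 and 72.7 at day 7 in shMLL1. Both targets were therefore lower in the line made against them on both days, Kmt2a by under 2-fold at day 7. Of 12 mesenchymal markers, 11 had at least 10 counts in a library and were tested, and Nt5e, a surface marker of mesenchymal stem cells, had 1 to 6 counts. Between days Pdgfra was higher (log2 fold change 1.82, adjusted p = 0.0288) and Thy1 (-1.01, adjusted p = 0.00972) and Vim (-1.12, adjusted p = 0.0324) were lower. The macrophage markers Adgre1 and Tyrobp were at 0 in all 6 libraries and Ptprc at 0 to 3 counts. Of the other macrophage markers, 5 were tested. At day 7, 2 were called higher and 0 lower, where 17.7% and 17.0% of all genes tested were. The median log2 fold change of the 5 was 1.80, and Aif1 was not called (0.91). Cd68 (1.80, adjusted p = 0.00655) had 1.20 to 2.19 CPM at day 0 and 3.99 to 7.58 at day 7, and Fcer1g (2.50, adjusted p = 0.0228) had 2 to 5 counts and 13 to 24. Csf1r had 3 to 7 counts at day 0 and 11 to 26 at day 7 (1.80, adjusted p = 0.0546). The summed level of all 10 was 23.7 to 25.9 CPM at day 0 and 18.4 to 27.3 at day 7, most of it from Cd14, which did not pass the test (-0.71, adjusted p = 0.0591). The hepatocyte markers Fga, Fgb and Ttr were at 0 in all 6 libraries and Alb at 0 to 2 counts. In contrast Cyp2e1 had 0 counts at day 0 and 181 at day 7 in shControl, at least 63.2-fold higher against the floor of 3 counts per library, with at most 2 counts in the other lines. Ahsg had 0 or 1 count at day 0 and 27, 22 and 7 counts in shControl, shNFIB and shMLL1 at day 7. The summed level of 8 hepatocyte markers was 0.0626 to 0.0663 CPM at day 0 and 0.451 to 7.02 at day 7. The part of these cell types in the complement values was not tested.

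All 9 genes were detected, with a lowest count of 6 (Cd55 in shControl at day 7). Their order was compared per kilobase of exon, since a longer gene collects more reads. C3, the central component, was first in all 6 libraries, at 50.9 to 119 CPM per kb at day 0 and 205 to 444 at day 7. C1s1 was second in all 6 libraries, at 23.5 to 51.7 CPM per kb at day 0 and 97.0 to 157 at day 7. C3 alone made up 48.3%, 29.3% and 43.2% of the 9 genes' summed per-length level at day 0 in shControl, shNFIB and shMLL1, and 64.7%, 63.5% and 58.3% at day 7. C1ra and Masp1 took places 3 and 4 at day 0 in all 3 lines. In shMLL1 at day 0 they stood at 20.3 and 18.4 CPM per kb, and in shControl at 31.7 and 36.4 in the reverse order. C4b, which was in place 6 or 7 at day 0, was in place 3 in shControl at day 7, with 57.8 CPM per kb. Cfb and C2 were in the last 3 places in every library, at most 0.824 and 0.265 CPM per kb. Serping1 stood between 1.57 and 7.17 CPM per kb, and Cd55 between 0.0406 and 18.2, the widest range in fold of the 9 genes.

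**Figure D1:**
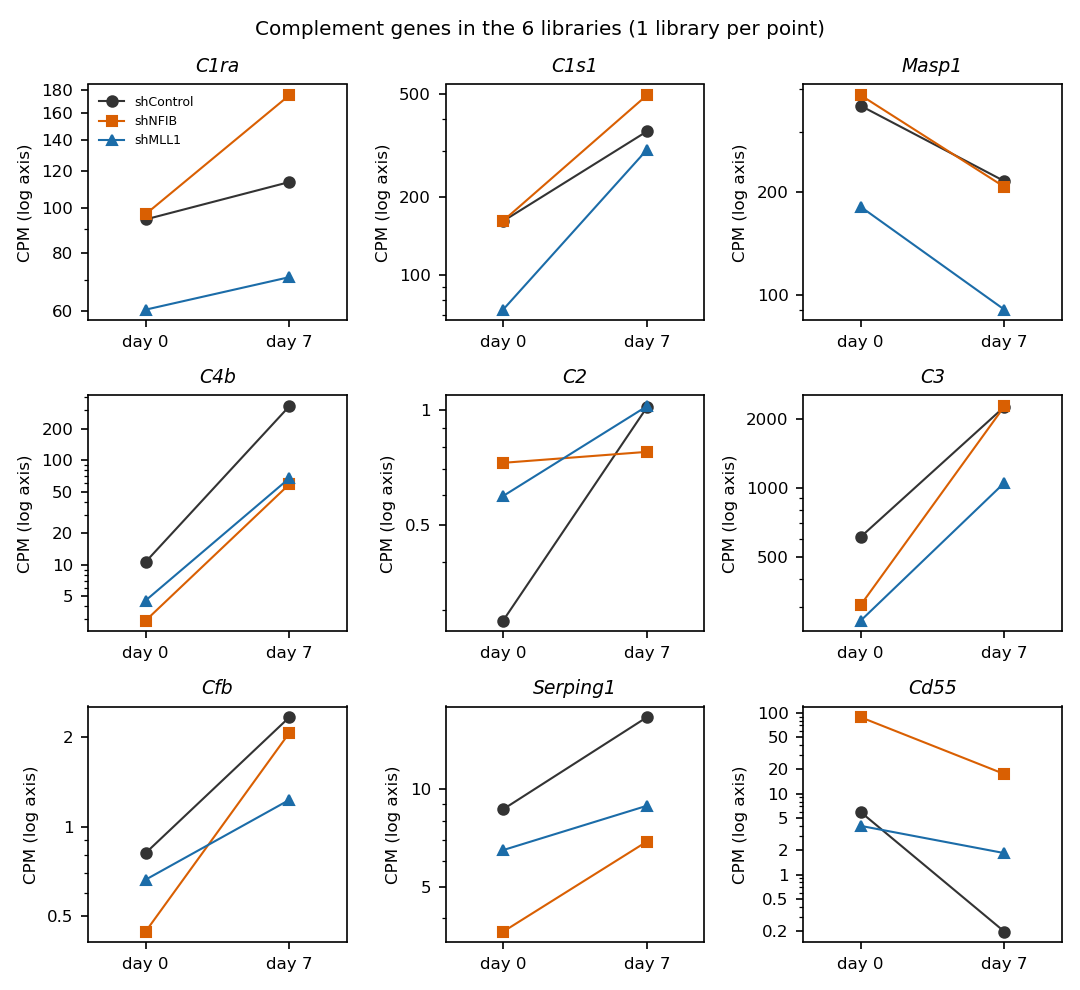
Level of each complement gene (vertical log axis, CPM after TMM scaling) at day 0 and day 7 in shControl, shNFIB and shMLL1, 1 library per point. C3, C4b, C1s1 and Cfb were higher at day 7 in all 3 lines, Masp1 and Cd55 were lower in all 3, and Cd55 was highest in shNFIB on both days.

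The change over 7 days of osteogenic medium was tested over the 3 lines, the one comparison with 3 libraries on each side. C4b, C3, C1s1 and Cfb were higher at day 7, and Cd55 and Masp1 were lower. That is 4 of 9 genes higher, where 17.7% of all 15741 genes tested were called higher, and 2 of 9 lower, where 17.0% were called lower (Benjamini-Hochberg adjusted p under 0.05 from edgeR's quasi-likelihood test, blocked by line). The median log2 fold change of the 9 genes was 0.87, against -0.02 over all genes tested. These p-values set the day change against its spread between the 3 lines, with 1 library per condition and no replicate cultures. In this test each gene's spread is drawn towards the trend over all genes, so the p-values rest in part on other genes.

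Among the initiating proteases, C1s1 encodes C1s, which cleaves C4 and C2. It stood at 161 CPM in shControl, 162 in shNFIB and 73.6 in shMLL1 at day 0, and at 357, 493 and 304 at day 7. The days did not overlap, and the log2 fold change was 1.60 (SE 0.24, adjusted p = 0.00455). C1ra encodes C1r, which activates C1s. It went from 94.5, 97.0 and 60.4 CPM to 114, 175 and 71.0 in shControl, shNFIB and shMLL1, higher in 3 of 3 lines but with overlapping days, and did not pass the test (log2 fold change 0.45, SE 0.21, adjusted p = 0.133). Masp1, whose transcripts include those of a lectin pathway protease and were not separated here, went the other way. Its levels of 358, 385 and 181 CPM at day 0 compared with 215, 207 and 90.5 at day 7 in the same order of lines. The shMLL1 library at day 0 lay below the other lines at day 7, so the days overlapped, and the decrease was seen within each line (log2 fold change -0.87, SE 0.20, adjusted p = 0.0185). Without the line as a block the adjusted p was 0.150, without shControl it was 0.104 and without shNFIB 0.0557.

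C4b encodes C4, the part of the classical and lectin convertase that binds to surfaces. It had 10.6 CPM in shControl, 2.91 in shNFIB and 4.54 in shMLL1 at day 0. At day 7 it had 329, 59.0 and 67.3. Every day 7 library lay above every day 0 library, and this was the largest change of the 9 genes (log2 fold change 4.41, SE 0.28, adjusted p = 0.000497). The fold between single libraries was 31.0 in shControl, 20.2 in shNFIB and 14.8 in shMLL1. C2, the protease of the same convertase, had few counts (9 to 31, or 0.282 to 1.02 CPM), a level left uncertain by its exons shared with Gm20547. It was not called between days (log2 fold change 0.87, SE 0.51, adjusted p = 0.215).

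C3 had 609 CPM in shControl, 306 in shNFIB and 262 in shMLL1 at day 0. At day 7 it had 2270, 2281 and 1054. The lowest day 7 library thus lay above the highest day 0 library (log2 fold change 2.27, SE 0.32, adjusted p = 0.00379). Cfb, which encodes factor B, the protease of the alternative pathway convertase, was counted at a much lower level, left uncertain by its exons shared with Gm20547. Its 0.814, 0.443 and 0.663 CPM at day 0 compared with 2.33, 2.06 and 1.23 at day 7, with no overlap of days (log2 fold change 1.54, SE 0.45, adjusted p = 0.0363). These values rest on 14 to 71 counts, and the call was lost without shControl (adjusted p = 0.148) or without shNFIB (adjusted p = 0.134).

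The inhibitors did not move together. Serping1 encodes C1 inhibitor, which inactivates C1r, C1s and the MASP proteases. It went from 8.67 to 16.7 CPM in shControl, from 3.64 to 6.90 in shNFIB and from 6.49 to 8.89 in shMLL1, higher in 3 of 3 lines but short of the threshold (log2 fold change 0.78, SE 0.26, adjusted p = 0.0542). It passed without shMLL1 (adjusted p = 0.0314), with library size alone as the scaling (adjusted p = 0.0329) and in DESeq2's Wald test (adjusted p = 0.0213). Cd55 encodes a membrane protein that speeds the decay of the C3 convertases. It had 5.95 CPM in shControl, 88.5 in shNFIB and 4.01 in shMLL1 at day 0, and 0.197, 17.5 and 1.84 at day 7. The shNFIB library at day 7 was above the other lines at day 0, so the days overlapped. Within each line it was lower at day 7 (log2 fold change -2.49, SE 0.58, adjusted p = 0.0181), and without the line as a block the adjusted p was 0.289.

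**Figure D2:**
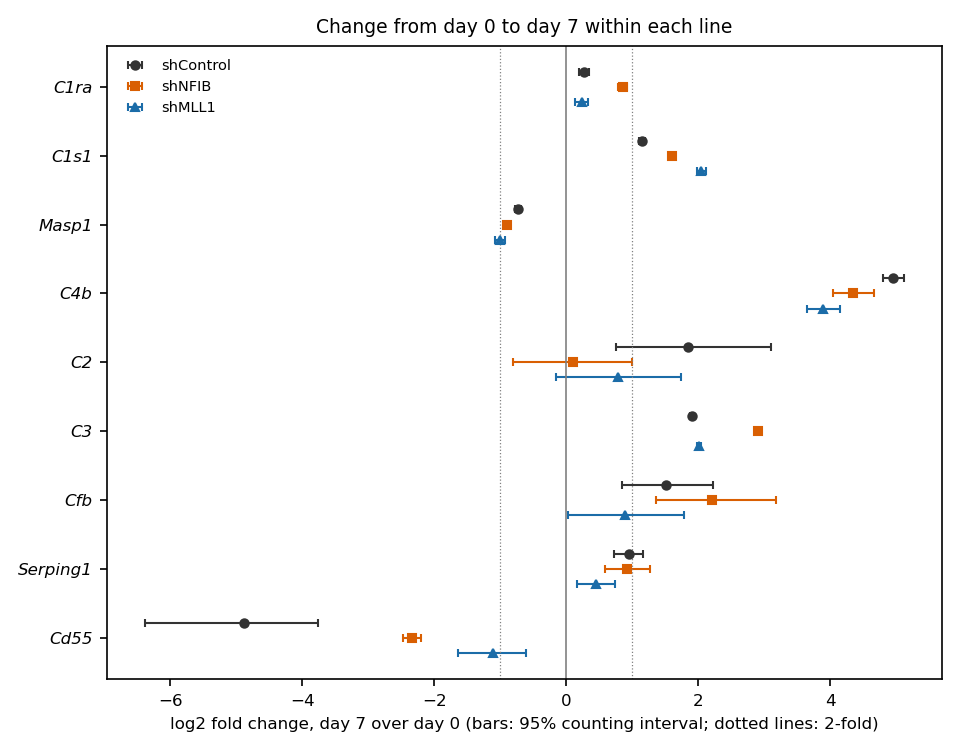
Log2 fold change of day 7 over day 0 (horizontal axis) for each complement gene within shControl, shNFIB and shMLL1, with bars for the 95% counting interval and dotted lines at 2-fold. C4b lay furthest to the right in all 3 lines, at 3.89 to 4.96, and Cd55 ranged from -4.89 in shControl to -1.12 in shMLL1.

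Within single lines, a gene was counted when it differed at least 2-fold between days. In shControl 5 of the 9 genes were higher and 1 was lower, where 23.2% and 14.9% of all genes with at least 10 counts in the pair were. In shNFIB the numbers were 4 and 1, where 16.9% and 13.8% of genes were, and in shMLL1 they were 3 and 2, where 25.9% and 19.5% were. C3, C4b and C1s1 were among the higher genes of all 3 lines. The day response also differed in size between lines. The log2 fold change of C3 was 1.90 in shControl, 2.90 in shNFIB and 2.01 in shMLL1, and the shNFIB response exceeded the shControl response by 1.00 (95% counting interval 0.96 to 1.04). For C4b the responses were 4.96, 4.34 and 3.89, with differences from shControl of -0.62 (-0.96 to -0.28) for shNFIB and -1.07 (-1.36 to -0.77) for shMLL1. For C1s1 they were 1.15, 1.61 and 2.05, larger than in shControl by 0.46 (0.39 to 0.53) in shNFIB and 0.90 (0.81 to 0.98) in shMLL1. For Cd55 they were -4.89, -2.34 and -1.12, with differences from shControl of 2.55 (1.37 to 3.73) and 3.77 (2.50 to 5.04). These intervals cover counting error only, and reads are not independent molecules. With no second culture, whether the lines differ in response was not tested.

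The knockdown lines were then compared with shControl over both days, with 2 libraries on each side. None of the 9 genes was called in shNFIB, where 0.292% of all genes were, and none in shMLL1, where 0.0318% were (edgeR's quasi-likelihood test, Benjamini-Hochberg adjusted). At an unadjusted p under 0.05 there were 3 of 9 in shNFIB, against 1918 of all 15741 genes, and 4 of 9 in shMLL1, against 1416. DESeq2's Wald test called 3 in each line, where it called 3.78% of all genes in shNFIB and 2.79% in shMLL1. The median log2 fold change of the 9 genes was -0.02 in shNFIB and -0.61 in shMLL1, against 0.01 and 0.02 over all genes tested. Both comparisons use the same shControl libraries.

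In shNFIB, the largest differences were in Cd55 and C4b. Cd55 was above shControl by a log2 fold change of 4.50 over both days (SE 0.72, adjusted p = 0.0799), and it was 14.9-fold higher at day 0 and 87.2-fold higher at day 7, the latter against 6 counts in shControl. C4b was lower, with a log2 fold change of -2.25 (SE 0.32, adjusted p = 0.0578), 3.64-fold at day 0 and 5.58-fold at day 7. Serping1 was 2.38-fold lower at day 0 and 2.41-fold lower at day 7 (log2 fold change -1.30, SE 0.32, adjusted p = 0.187). DESeq2's Wald test called these 3 genes, with adjusted p-values of 7.62e-10 for Cd55, 1.47e-07 for C4b and 0.0117 for Serping1. The quasi-likelihood calls changed when libraries were left out, which also lowers the residual degrees of freedom from 2 to 1: Cd55 passed without shControl at day 0 (adjusted p = 0.00229), without shControl at day 7 (0.0321) or without shNFIB at day 7 (0.0292), and C4b passed without shControl at day 0 (0.0203). C3 was 1.99-fold below shControl at day 0 and level with it at day 7, where the log2 fold change was 0.01 (95% counting interval -0.01 to 0.02). C1ra and C1s1 were level with shControl at day 0 (log2 fold changes 0.04 and 0.00) and above it at day 7 (0.62 and 0.46), and Masp1 was at 0.10 at day 0 and -0.06 at day 7. At least 2-fold differences at day 0 numbered 2 higher (Cd55, and C2 at 23 counts against 9) and 2 lower (C4b and Serping1), where 7.49% and 6.80% of genes were. At day 7 there were 1 higher and 2 lower, where 8.37% and 13.6% were.

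In shMLL1, 8 of the 9 genes were below shControl at day 0, all but C2, although the counting interval of Cfb (-1.21 to 0.60) included 0. The median of the 9 was -0.65, against -0.03 over all genes with at least 10 counts in the pair. The 11 mesenchymal markers had a median of -0.66 in the same comparison, with 0 at least 2-fold higher and 4 lower. At day 7 the medians against shControl were -0.91 for the 9 genes, 0.10 for the mesenchymal markers and -0.02 over all genes. Of these markers, 1 was then at least 2-fold higher and 0 lower. C4b had a log2 fold change of -1.74 over both days (SE 0.31, adjusted p = 0.131), and it was 2.34-fold lower at day 0 and 4.89-fold lower at day 7. C3 was 2.33-fold lower at day 0 and 2.15-fold lower at day 7 (log2 fold change -1.12, SE 0.38, adjusted p = 0.431). Masp1 was 1.98-fold and 2.38-fold lower on the same days (log2 fold change -1.07, SE 0.25, adjusted p = 0.229). DESeq2's Wald test called these 3 genes, with adjusted p-values of 0.000228 for C4b, 0.0490 for C3 and 0.00412 for Masp1. Without shMLL1 at day 0, C4b passed the quasi-likelihood test (adjusted p = 0.00542). C1s1 was 2.19-fold lower at day 0 and 1.18-fold lower at day 7, and C1ra was 1.56-fold and 1.60-fold lower. Cd55 was 1.48-fold below shControl at day 0 and 9.18-fold above it at day 7, where shControl had 6 counts and shMLL1 had 45. At least 2-fold differences at day 0 numbered 1 higher and 3 lower, where 11.6% and 9.47% of genes were, and at day 7 also 1 higher and 3 lower, where 9.36% and 7.07% were. The gene higher at day 0 was C2, at 18 counts against 9 in shControl, with a counting interval (-0.15 to 2.42) that included 0.

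**Figure D3:**
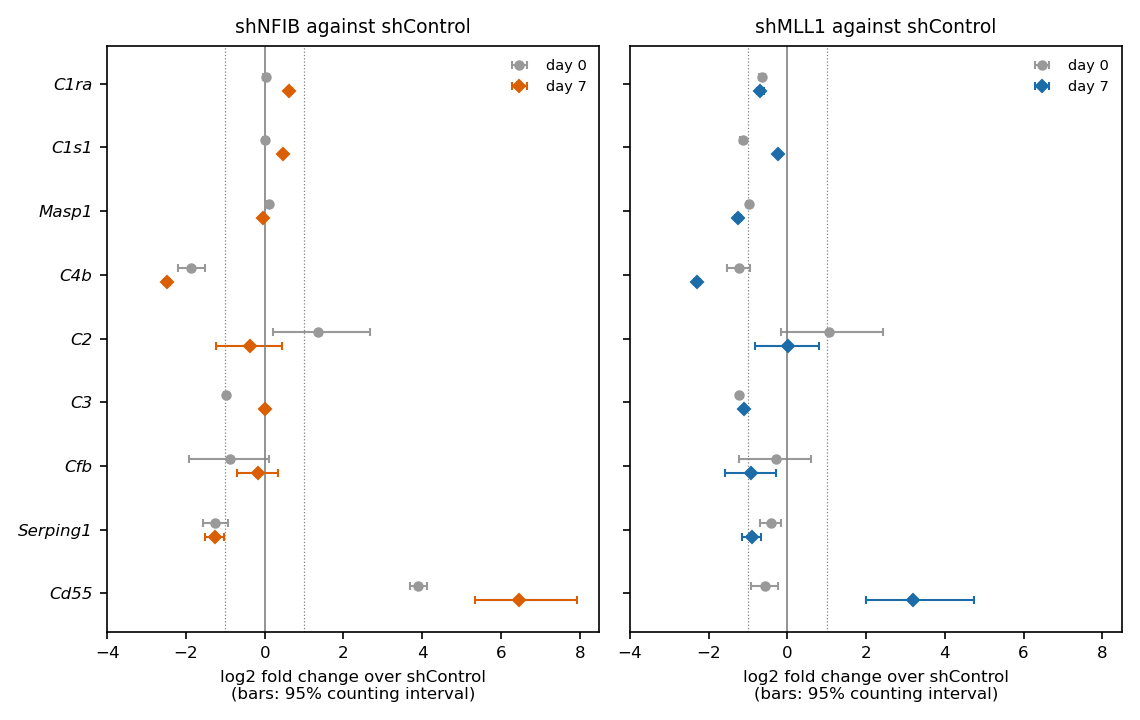
Log2 fold change of shNFIB (left) and shMLL1 (right) over shControl at day 0 (grey) and day 7 (coloured), with bars for the 95% counting interval and dotted lines at 2-fold. C4b was below 0 in both lines on both days, Cd55 was far above 0 in shNFIB, and Masp1 lay near 0 in shNFIB and near -1 in shMLL1.

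The knockdown lines were also set against each other in the same fit. Cd55 was lower in shMLL1 than in shNFIB by a log2 fold of -3.73 (SE 0.71, adjusted p = 0.0946), Masp1 by -1.05 (SE 0.25, adjusted p = 0.127) and C1ra by -0.92 (SE 0.26, adjusted p = 0.159), and none of the 9 genes passed the threshold. C4b, low in both lines, differed between them by 0.51 (SE 0.31, adjusted p = 0.397).

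A further 44 complement genes were followed as a list, written with earlier results of these data known. Of them, 11 were at 0 in all 6 libraries, 20 had at least 10 counts in a library and 19 were tested. Between days 10 were higher and 2 lower, with a median log2 fold change of 1.39, where 17.7% of all genes tested were called higher and 17.0% lower. The same shares apply to the counts of the lists that follow. C1q, which carries C1r and C1s to their target, was missing from these cells: C1qa and C1qc had 0 counts in all 6 libraries and C1qb at most 1. Of the terminal components, which build the membrane pore, C6, C7 and C9 had at most 1 count and C8a and C8b had 0, while C5 (Hc) had at most 9. C8g, a further C8 gene, had 76 to 300 counts. The C5 receptor gene C5ar1 was at 0 in all 6 libraries, and the C3a receptor gene C3ar1 had 0 to 8 counts.

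Among 23 other components, 10 were tested, 6 were higher and 2 lower at day 7. The copies C1s2 (log2 fold change 1.49, adjusted p = 0.00881) and C4a (1.39, adjusted p = 0.0189) were higher, as were C1s1 and C4b. Cfp encodes properdin, which stabilises the alternative pathway convertase, and was also higher (1.73, adjusted p = 0.00582), with 4.85 to 6.96 CPM at day 0 and 10.4 to 27.1 at day 7. Cfd encodes factor D, the protease that cleaves factor B, and is also an adipocyte marker. It had 0 counts at day 0 in all 3 lines, and 2129 counts in shControl, 22 in shNFIB and 45 in shMLL1 at day 7. Against a floor of 3 counts per library this is at least 744-fold, 7.83-fold and 18.6-fold higher. Over both days Cfd was also called lower in shNFIB, with an adjusted p of 0.0375, a call that rests on the day 7 libraries since day 0 was at 0. C8g (1.47, adjusted p = 0.0159) and Masp2 (2.54, adjusted p = 0.00608) were higher too, Masp2 with 54.9% of its exon bases overlapped by Tardbp on the other strand. C1rl (-0.86, adjusted p = 0.0212) and Fcna, a ficolin (-1.85, adjusted p = 0.0393), were lower.

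Of 13 other regulators, 7 were tested and 3 were higher at day 7. Clu encodes clusterin, an inhibitor of the terminal pathway, and went from 75.0, 12.1 and 8.45 CPM in shControl, shNFIB and shMLL1 at day 0 to 592, 402 and 201 at day 7 (log2 fold change 4.21, adjusted p = 0.00138). Cd46, a membrane cofactor, was higher as well (1.70, adjusted p = 0.00437), whereas Cd55 was lower. Of 8 receptors, 2 were tested and Itgb2, an integrin chain of complement receptors that leukocytes carry, was higher (2.84, adjusted p = 0.00995) at 0.158 to 3.58 CPM. The partner chain genes Itgam and Itgax had at most 1 count and 0 counts, Itgam with 68.7% of its exon bases shared with Gm49368.

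**Figure D4:**
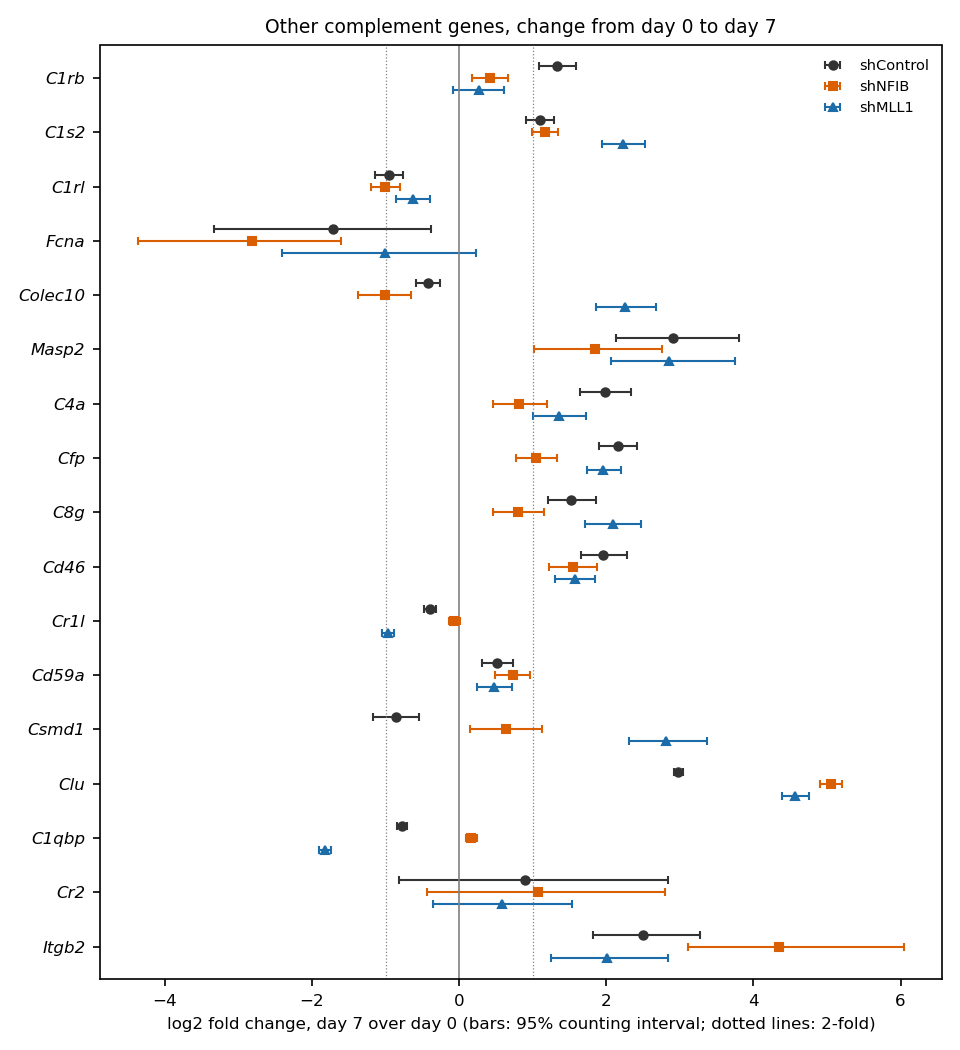
Log2 fold change of day 7 over day 0 (horizontal axis) within each line for 17 other complement genes above the floor in both libraries of every line, with bars for the 95% counting interval and dotted lines at 2-fold. Clu and Cd46 were above 0 in all 3 lines, while Colec10 and Csmd1 were above 0 in shMLL1 and below 0 in shControl.

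Of the fat cell markers, 2 of 3 tested (Cfd and Pparg) were called higher at day 7, and of the bone cell markers 1 of 4 (Ifitm5, log2 fold change 1.84, adjusted p = 0.0354). The summed level of 8 adipocyte markers, which include Cfd, was 31.8 CPM at day 0 and 159 at day 7 in shControl, 55.9 and 89.3 in shNFIB, and 15.6 and 29.5 in shMLL1, with Adipoq at 0 or 1 count. Pparg (0.71, adjusted p = 0.0224) made up 84.2 of the 89.3 CPM in shNFIB at day 7 and 42.0 CPM in shControl, and Fabp4 stood at 3.58 to 4.84 CPM in all 6 libraries. Cidec was at 0 in every line at day 0, and at day 7 shControl had 681 counts, shNFIB 5 and shMLL1 17. Plin1 was likewise at 0 at day 0, and its counts at day 7 were 472, 9 and 28. The summed level of 8 osteoblast markers was 263 and 1557 CPM in shControl, 253 and 269 in shNFIB, and 262 and 357 in shMLL1, with Ibsp at 0 in all 6 libraries. Spp1 made up 1381 of the 1557 CPM, and Alpl was higher in shNFIB (7.27 CPM) than in shControl (3.64 CPM) at day 7. Both sums were highest in shControl at day 7, as were C4b, Serping1 and Cfb, whereas C1s1 and C1ra were highest in shNFIB at day 7. C3 was level between shControl and shNFIB at day 7, and C2 between shControl and shMLL1. Masp1 and Cd55 were highest in shNFIB at day 0. The part of fat and bone cells in the complement values was not tested.

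Complement genes are known targets of cytokine and acute-phase signalling, so genes of these groups were followed from lists. Of 22 cytokine signalling genes, all tested, 3 were higher and 4 lower at day 7, with a median log2 fold change of -0.11. These numbers are near the shares over all genes, 17.7% and 17.0%. The receptor subunit genes Il6ra (1.66, adjusted p = 0.00614) and Lifr (1.82, adjusted p = 0.00774) and the NF-κB inhibitor gene Nfkbia (1.20, adjusted p = 0.00497) were higher. Il6st (-0.87, adjusted p = 0.0363), Cebpb (-1.34, adjusted p = 0.00531), Nfkb1 (-0.58, adjusted p = 0.0394) and Nr3c1, the glucocorticoid receptor gene (-0.99, adjusted p = 0.0275), were lower. Of 13 acute-phase genes, 9 were tested, 5 were higher and 2 lower, with a median of 2.78. Hp, the gene of haptoglobin, had 13.0, 1.30 and 3.74 CPM in shControl, shNFIB and shMLL1 at day 0 and 231, 134 and 107 at day 7 (log2 fold change 5.14, adjusted p = 0.00113). Cp (2.44, adjusted p = 0.00799), Serpina3n (4.08, adjusted p = 0.00425), Orm1 (adjusted p = 0.000497) and Orm2 (adjusted p = 0.000836) were also higher. At day 0 Orm1 had 0 to 2 counts and Orm2 0 or 1 count, so both were at the floor. Ptx3 (-2.58, adjusted p = 0.00107) and Serpina3g (-1.14, adjusted p = 0.00988) were lower.

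The genes whose profile over the 6 libraries was nearest to each complement gene were found by Euclidean distance between mean-centred log2 CPM values, among genes with at least 100 counts in all. For C3 the nearest were Pfkfb3 (distance 0.75), Gm17334 (0.79) and Marcksl1 (0.80). For C1s1 they were Calcoco1 (0.23), its own copy C1s2 (0.36) and Gm43667 (0.37), the one case in which another complement gene came within the nearest 3. For C4b they were A530020G20Rik (0.85), Fam83a (1.04) and Tbkbp1 (1.14), and for Masp1 they were Arhgdia (0.27), Tubb2a (0.29) and Def6 (0.31). Cd55 had no close neighbour, with Tmeff2 at 2.39, Hgf at 2.60 and Tll1 at 2.89. The profiles were not scaled, so this distance grows with a gene's range, which was widest for Cd55 among the members. For example, C3 and C4b lay 3.2 apart with a Pearson correlation of 0.93 over the 6 libraries. Between members the shortest distance was 1.26, found for Cfb with Serping1 and for Cfb with C3, and the longest was 11.4, between C4b and Cd55.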

How the data were processed

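RNA of C3H10T1/2 cells was measured by RNA-seq in 6 conditions with 1 library each. Per the labels and the study's methods, the authors trimmed paired reads with Trimmomatic 0.39, aligned them to GRCm38 with HISAT2 2.2.1, kept reads of mapping quality over 30 with SAMtools 1.12, removed PCR duplicates and counted reads per gene with HTSeq 0.11.1. The table that the authors deposited holds unnormalized counts by Ensembl gene identifier, and 0 rows named no gene. The annotation release and strand setting are not given in the sources used here, so reads of overlapping genes on opposite strands may not be separated. Reads shared by near-identical copies fail the mapping quality filter, which lowers the counts of such genes. Depth was 21608680 to 34774066 counts per library.

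Symbols, positions and exon lengths came from GENCODE M21, in which 55141 of 55401 genes had an entry. The fit over 6 libraries used edgeR 4.0.16 under R 4.3.3 (quasi-likelihood test, TMM scaling, filterByExpr by day, line and day as terms, Benjamini-Hochberg adjusted p under 0.05 over all genes tested). It kept 2 residual degrees of freedom per gene and a biological coefficient of variation of 0.277. Each gene's spread was drawn towards the trend over all genes, which adds degrees of freedom to these 2. Both libraries of a line come from the same hairpin cells, so the line was a block, and across genes their deviations from the day means had correlations of 0.434, 0.430 and 0.271 in shControl, shNFIB and shMLL1. Single libraries were compared by log2 fold change with a prior count of 0.125, called at 2-fold with at least 10 counts in the pair, with exact Clopper-Pearson intervals at 95% (scipy 1.17.1, Python 3.11.15). DESeq2 1.42.0 size factors and Wald test, library size alone, no filter on low counts, no block, a prior count of 2, thinned counts, an exact test at an assumed coefficient of variation of 0.2 and each line or library left out were alternatives. Figures were drawn with matplotlib 3.10.9.

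The text names all 9 complement genes, the hairpin targets, and of the other lists the genes that passed the test between days. Others are counted or were chosen after their values were seen, among them markers at or near 0 and genes that make up most of a list's sum. The genes and lists were chosen with earlier results of these data known. ChIP-seq and fat cell samples of the study were not used here. A gene of the lists is not reported here.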

Additional observations from a re-analysis of the deposited data

Results flagged for a closer look

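Several complement genes were higher than shControl on one day and lower on the other, or moved in opposite directions over the days in different lines, with counting intervals that lay on opposite sides of 0. With 1 library per condition, none of these differences was tested beyond counting error.

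For Cd55, shMLL1 was above shControl by a log2 fold change of 3.20 at day 7 and below it by -0.57 at day 0, a difference of 3.77 that rests on 6 counts in shControl at day 7. For Masp1, shNFIB was at 0.10 above shControl at day 0 and at -0.06 at day 7, a difference of only 0.158, and with library size alone as the scaling the day 0 value was -0.005. For C1rb, the copy of C1ra, shNFIB was at 0.40 at day 0 and -0.51 at day 7, a difference of 0.912. Colec10, a collectin of the lectin pathway, changed over the days by 2.26 in shMLL1 and by -1.01 in shNFIB, a difference of 3.27. Csmd1 changed by 2.82 in shMLL1 and by -0.85 in shControl, a difference of 3.67, so that shMLL1 was at -2.71 against shControl at day 0 and at 0.96 at day 7, a difference of 3.67 again.

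Outside complement, Lifr in shMLL1 was at -1.13 against shControl at day 0 and at 0.23 at day 7 (difference 1.36), and Nr3c1 in shMLL1 was at -0.42 and 0.74 (difference 1.16). Pdgfra was at -1.60 at day 0 and 0.93 at day 7 in shMLL1 (difference 2.54) and at -0.28 and 0.09 in shNFIB (difference 0.367). Serpina3g in shNFIB was at -0.22 and 0.47 (difference 0.687).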

How the results depend on the processing

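The 6 complement genes called between days were within 1.5 times that number under every alternative run, and the exceptions among single genes (Cfb, Masp1, Cd55, Serping1) stand beside their results. Against 0 called in shNFIB, DESeq2's Wald test called 3, library size alone 1, no filter on low counts 2, and a fit to only the 4 libraries compared 3. Leaving out each library gave 0 to 2. Against 0 called in shMLL1, these gave 3 (DESeq2), 2 (no filter) and 1 (4 libraries), and leaving out each library gave 0 to 1. The cause was not tested. With an exact test at an assumed coefficient of variation of 0.2, genes at least 2-fold different numbered 2 in shNFIB at day 0 (4 without it), 1 in shMLL1 at day 0 (4) and 2 in shMLL1 at day 7 (4). Masp1 in shNFIB, at a log2 fold change of -0.02, was at 0.022 without the filter and at -0.12 to 0.10 with each library left out. Leaving out each library also turned the sign of C1ra (-0.0036 to 0.63), C1s1 (-0.14 to 0.53) and C2 (-0.25 to 1.16) in shNFIB and of C2 (-0.12 to 1.30) and Cd55 (-0.19 to 2.91) in shMLL1, none of which was called. Of the other values from the fits, 194 kept direction and call, 23 gained a call and 6 lost one, and of those between single libraries 219 moved by less than their counting interval and 33 by more. Calls over all genes also moved: in shNFIB from 46 to 584 with DESeq2, 688 without the filter, 593 with the 4 libraries and 39 to 108 with each library left out, and in shMLL1 from 5 to 405, 526, 199 and 23 to 626. Between days they fell from 5462 to 2410 without shControl. At least 2-fold differences over all genes went, with the exact test, from 5230 to 3303 between days in shNFIB, from 2381 to 754 and 3876 to 1572 in shNFIB at day 0 and day 7, and from 3584 to 1522 and 2946 to 932 in shMLL1. Library size alone shifted the median day effect of all genes from -0.02 to 0.11. The line is the block of the day fit, and with no replicate block 4 of the 9 genes were called between days. Low counts limit C2 and Cfb, at 9 to 31 and 14 to 71 counts, and Cd55 in shControl at day 7, at 6 counts. For C2 and Cfb, low expression and reads lost in exons shared with Gm20547 cannot be told apart.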
